A study of Mus musculus with 12 samples.

Results

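The 47 genes whose symbol is *Slc25a* followed by a number, out of 53801 genes counted, were followed in whole mouse hearts. The rule for membership used the symbol alone. The proteins of this family sit in the inner mitochondrial membrane, apart from a few in the outer membrane or in peroxisomes. They carry ADP and ATP, phosphate, dicarboxylates, amino acids, acylcarnitines, cofactors and iron across it. A carrier built from repeated pairs of membrane-spanning helices binds its substrate on one side of the membrane and releases it on the other. Cardiomyocytes are rich in mitochondria, and their ATP is made in the matrix and used outside it, so that the exchange of ADP for ATP is the busiest of these routes in the heart.

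Hearts were taken after sham surgery, 1 day after acute myocardial infarction (AMI) and 7 days after AMI, as 4 hearts a group, each sequenced as its own library. The AMI groups are called day 1 and day 7 here. To make the infarct the LAD (left anterior descending) artery was tied off, and the mice were C57BL/6N, male and 10 to 14 weeks old by the study's methods. The labels give no mutation or drug for any group. Their protocol lists analysis 0, 1 and 7 days after injury and does not tie day 0 to the sham hearts by name. Whole hearts mix infarcted and spared muscle with infiltrating cells, so that fewer cells of a type and less RNA per cell cannot be told apart.

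Each library held between 23204551 and 32166517 counts. Levels are given as CPM, the counts of a gene scaled to a fixed library total after TMM adjustment, which compares one gene between hearts, or as TPM, the same kind of share for transcripts, which also allows one gene to be set beside another because it divides by transcript length. Differences were tested with edgeR's quasi-likelihood test, and a gene was called at a false discovery rate (FDR) below 0.05 over the 15306 genes that passed a filter on low counts. A log2 fold change (FC) of 1 is a doubling. The libraries differed in composition. TMM factors ran from 0.781 to 0.917 in sham, from 1.01 to 1.06 on day 1 and from 1.10 to 1.17 on day 7, and transcripts of the mitochondrial genome took from 17.9% to 27.4%, from 12.1% to 15.9% and from 13.2% to 19.2% of the counts. Markers of cardiomyocytes were present in every heart, with summed levels of 73146 to 88108 CPM in sham, 47138 to 58995 on day 1 and 41266 to 48017 on day 7. Of the 10 cardiomyocyte markers, 8 were lower on day 1 than in sham and 9 on day 7, with median log2 FCs of −0.62 and −1.09. All 8 monocyte and macrophage markers and 6 of 6 cell cycle genes were higher in both AMI groups, and 7 of 7 fibroblast markers and 5 of 6 endothelial markers were higher on day 7. On day 1, 5 of 7 fibroblast markers were already higher and 1 was lower, and 2 of 6 endothelial markers were lower. Of 7 neutrophil markers tested, 3 were higher on day 1 than in sham, and 5 were lower on day 7 than on day 1. Among all genes tested, 22.0% were higher and 19.9% lower on day 1, and 30.9% and 28.4% on day 7. From day 1 to day 7, 22.8% were lower. The summed levels of these lists in sham, day 1 and day 7 hearts were 217 to 306, 434 to 632 and 653 to 977 CPM for monocytes and macrophages, 839 to 1008, 1093 to 1378 and 5345 to 12181 CPM for fibroblasts, 816 to 955, 705 to 756 and 1123 to 1264 CPM for endothelium, and 2.92 to 60.1, 47.8 to 169 and 8.38 to 39.5 CPM for neutrophils. No marker of these lists was at 0 in every heart. What part these shifts in cell content have in the changes of the carriers was not tested.

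Of the 47 carriers, 41 passed the filter and were tested. The other 6, *Slc25a2*, *Slc25a18*, *Slc25a21*, *Slc25a41*, *Slc25a48* and *Slc25a54*, had at most 12 counts in a heart, and *Slc25a54* had 0 in every heart. A count of 3, taken as the floor of a library, corresponds to between 0.0895 and 0.156 CPM, and covers counting error only. The carriers spanned more than 3 orders of magnitude. Ranked by their mean over the 12 hearts, the adenine nucleotide translocator *Slc25a4* (ANT1) came first at 3875 ± 603 TPM in sham, 3635 ± 429 on day 1 and 2331 ± 66.04 on day 7 (SD, n = 4). The phosphate carrier *Slc25a3* followed at 2047 ± 95.9, 1935 ± 187 and 1583 ± 108 TPM. Then came the malate/2-oxoglutarate carrier *Slc25a11* (485 ± 40.98, 407 ± 57.3 and 384 ± 13.2 TPM), the translocator *Slc25a5* (ANT2; 288 ± 39.7, 410.0 ± 17.1 and 328 ± 10.2 TPM) and the carnitine/acylcarnitine carrier *Slc25a20* (167 ± 9.02, 140.3 ± 22.5 and 92.4 ± 6.38 TPM). The order was not the same in each group. By their means, *Slc25a5* exceeded *Slc25a11* on day 1 by less than the SD, and on day 7 *Slc25a39* (115 ± 4.68 TPM) and *Slc25a12* (99.9 ± 9.42 TPM) exceeded *Slc25a20*. The 5 genes of this ranking, which serve ATP export, phosphate entry, the malate-aspartate shuttle and fatty acid entry, held 88.9% of the TPM of all carriers in sham, 89.2% on day 1 and 85.7% on day 7. The TPM of all carriers summed to 7723 ± 823 in sham, 7315 ± 726 on day 1 and 5506 ± 128 on day 7 (SD, n = 4). The 4 day 7 hearts, at 5375 to 5653, lay below every sham heart, at 6496 to 8244, whereas the day 1 hearts, at 6870.2 to 8400.2, overlapped sham.

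**Figure D1:**
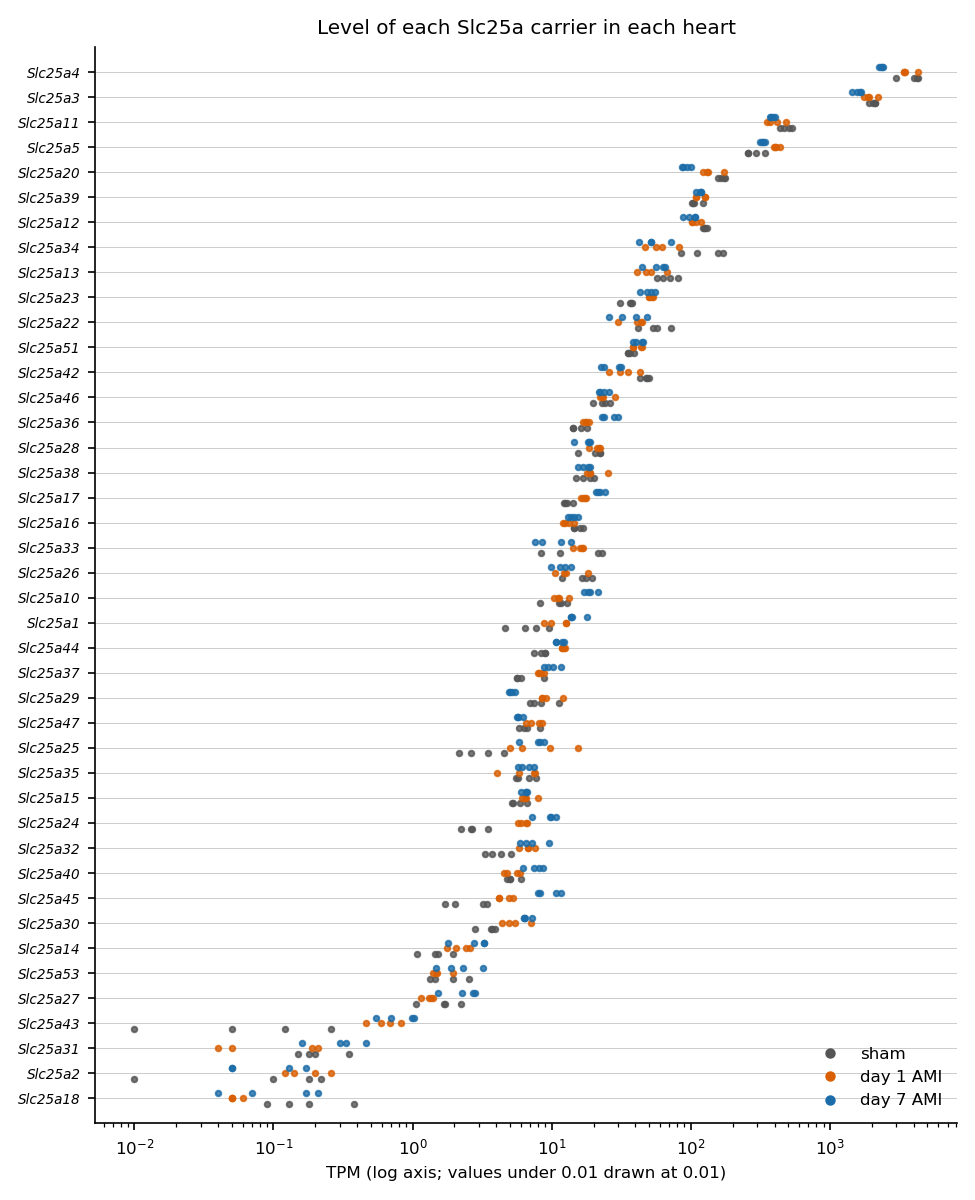
Level of 42 of the 47 carriers in each of the 12 hearts, in TPM on a log axis, 1 point per heart and 1 color per group; the 4 carriers with a mean below 0.05 TPM and 1 other are left out. *Slc25a4* and *Slc25a3* stand above 1000 TPM in every heart, and *Slc25a43*, *Slc25a31*, *Slc25a2* and *Slc25a18* lie near the floor.

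Between day 1 and sham, 17 of the 41 carriers (41.5%) were lower on day 1 and 7 (17.1%) were higher, where 19.9% of all genes tested were lower and 22.0% higher. Between day 7 and sham, 23 carriers (56.1%) were lower and 8 (19.5%) higher, where 28.4% of all genes were lower and 30.9% higher. From day 1 to day 7, 18 carriers (43.9%) were lower and 7 (17.1%) higher, against 22.8% and 24.2% of all genes. The median log2 FC of the carriers was −0.25, −0.39 and −0.18 in the 3 comparisons, and that of all genes tested −0.01, 0.03 and 0.02. Both AMI groups were compared with the same sham hearts. With library sizes alone as the scaling, the median of all genes itself moved to 0.26, 0.43 and 0.15, and the carriers divided into 8 lower and 11 higher on day 1, 14 lower and 15 higher on day 7, and 11 lower and 9 higher from day 1 to day 7. With limma on log2(TPM + 1) the corresponding splits were 3 and 11, 10 and 16, and 6 and 7. The carriers' median lay below that of all genes by 0.23, 0.42 and 0.20 with TMM, a difference that another scaling of the libraries cannot move, and by 0.14, 0.33 and 0.21 with limma on log2(TPM + 1). The calls that held in all 8 alternative fits, which changed the scaling, filter, tool, samples or block, were 3 of the 17 lower on day 1 (*Slc25a12*, *Slc25a34* and *Slc25a42*) and 10 of the 23 lower on day 7 (*Slc25a3*, *Slc25a4*, *Slc25a11*, *Slc25a12*, *Slc25a20*, *Slc25a22*, *Slc25a26*, *Slc25a29*, *Slc25a34* and *Slc25a42*). Of the calls in the other direction, 4 of 7 held on day 1 (*Slc25a24*, *Slc25a25*, *Slc25a43* and *Slc25a45*) and 6 of 8 on day 7. From day 1 to day 7, 6 of the 18 lower calls (*Slc25a3*, *Slc25a4*, *Slc25a5*, *Slc25a20*, *Slc25a29* and *Slc25a47*) and 4 of the 7 higher calls held. Groups whose hearts are said to overlap or not are compared in CPM after TMM unless TPM is named. Most changes were small. At a FC of 2 or greater, 1 carrier was lower and 1 higher on day 1 than in sham (2.98% and 7.79% of all genes), 8 were lower and 3 higher on day 7 (5.88% and 15.3%), and 2 were lower and 0 higher from day 1 to day 7 (2.69% and 8.55%). The hearts of the groups did not overlap for 16, 28 and 20 of the 41 carriers, where 36.7%, 53.0% and 44.5% of all genes did not overlap.

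**Figure D2:**
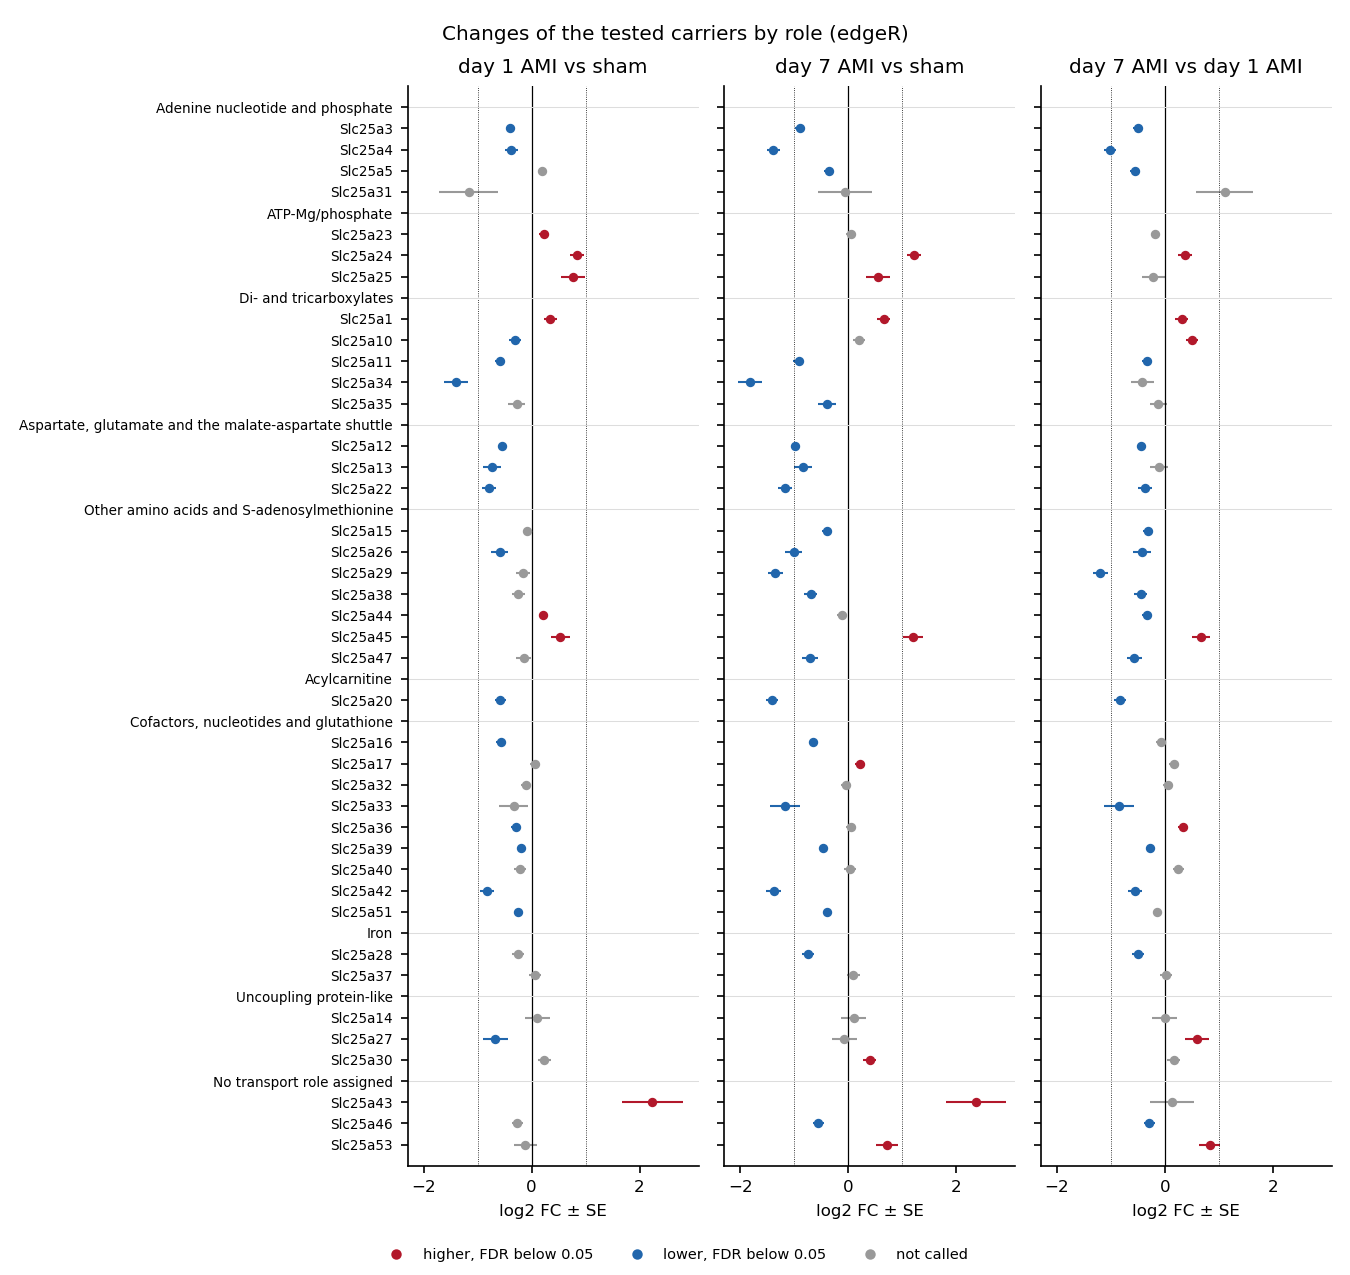
Log2 FC ± SE of 40 of the 41 tested carriers in the 3 comparisons (edgeR, TMM scaling), grouped by what they carry; red and blue points passed an FDR of 0.05, gray points did not, and dotted lines mark a FC of 2. The aspartate/glutamate group and *Slc25a20* lie left of 0 in each comparison, and the ATP-Mg/phosphate group lies right of 0 against sham.

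Export of ATP and entry of phosphate both serve oxidative phosphorylation. *Slc25a4* (chr8:46206797-46211284, minus strand, 4 exons) encodes the main ADP/ATP exchanger of heart and skeletal muscle. It was at 4119, 5347, 5562 and 5489.7 CPM in the sham hearts, 3766, 3745, 3688 and 4609 on day 1 and 2112, 1777, 2067 and 1864 on day 7. Every day 7 heart lay below every other heart, whereas 1 sham heart and 1 day 1 heart crossed. The log2 FC was −0.38, SE 0.12, adjusted p = 0.0191 on day 1, −1.39, SE 0.12, adjusted p = 4.21e-07 on day 7, or 2.62-fold lower, and −1.02, SE 0.12, adjusted p = 1.43e-05 from day 1 to day 7. The call on day 1 was lost without any one of sham replicate 3 or 4 or day 1 replicate 1, 2 or 3, with adjusted p up to 0.0574 by edgeR, and with library sizes alone and limma on TPM, but not with RLE size factors. Both calls that involve day 7 held in each of these fits.

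*Slc25a5*, the ADP/ATP exchanger that most tissues and dividing cells use, was at 249, 283, 252 and 234 CPM in sham, 293, 309, 294 and 269 on day 1 and 203, 202, 197 and 188 on day 7. Its day 1 hearts overlapped sham, and its day 7 hearts lay below all others. The log2 FC was 0.19, SE 0.077, adjusted p = 0.0564 on day 1, which did not pass with TMM scaling, and −0.37, SE 0.077, adjusted p = 0.000976 on day 7. The former was 0.46 with library sizes alone and 0.52 with limma on log2(TPM + 1), both past the test. The latter turned positive with library sizes alone (0.029) and with limma on log2(TPM + 1) (0.19). From day 1 to day 7 it was lower under every scaling (−0.56, SE 0.077, adjusted p = 6.01e-05). Of the 75-base stretches of *Slc25a5* exons, 19.8% also occur in 6 other annotated genes, of which 5 carry Gm numbers and the other is *Slc25a5-ps*, so that reads could be split between them. The testis form *Slc25a31* had 2 to 14 counts in a heart and passed no test.

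The phosphate carrier *Slc25a3*, which also brings copper into the matrix, was at 2091, 1985, 1987 and 2181 CPM in sham, 1552, 1431, 1575 and 1709 on day 1 and 994, 1160.4, 1135 and 1124 on day 7. In CPM no heart of one group overlapped another group, in the order sham, day 1, day 7, whereas in TPM the day 1 hearts (1763 to 2201) overlapped sham (1910.2 to 2121). The log2 FC was −0.40, SE 0.086, adjusted p = 0.00236 on day 1 and −0.90, SE 0.086, adjusted p = 1.08e-06 on day 7, and the call on day 1 was lost with library sizes alone and with limma on TPM. Partners of ATP exchange were read beside these carriers. Of 9 such genes, 7 were lower and 1 higher on day 1, and 8 were lower on day 7. Among all genes tested, 19.9% were lower and 22.0% higher on day 1, and 28.4% were lower on day 7. The 4 tested subunits of ATP synthase lay between −1.15 and −1.04 in log2 FC on day 7, and the cytosolic creatine kinase *Ckm*, which buffers ATP at the myofibrils, at −1.17. Hexokinase *Hk2*, which uses ATP at the outer membrane, had a log2 FC of −1.02 from day 1 to day 7, and *Hk1* was higher on day 1 (0.45, SE 0.12, adjusted p = 0.00675).

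The ratio of one carrier to a related one within a heart does not depend on the scaling between libraries. In log2 units of TPM + 0.1, the ratio of *Slc25a5* to *Slc25a4* was −3.53, −3.62, −3.86 and −3.96 in the sham hearts, −3.07, −3.00, −3.06 and −3.44 on day 1 and −2.81, −2.76, −2.91 and −2.84 on day 7. The groups did not overlap, and the ratio was highest on day 7. *Slc25a4* exceeded *Slc25a5* in every heart, by 11.6 to 15.6 times in sham and by 6.79 to 7.501 times on day 7. The mean log2 ratio was 0.60 higher on day 1 than in sham and 0.91 higher on day 7, and 0.31 higher on day 7 than on day 1. Each of these differences had p = 0.0286 in an exact two-sided permutation test of 4 hearts against 4, the smallest p the design allows. On counts in place of TPM, the first had p = 0.0571 by the same exact test. Over the 18 ratio tests run, the adjusted p was 0.0643, so that no ratio passed 0.05 after correction.

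The ATP-Mg/phosphate carriers exchange ATP-Mg for phosphate under control of cytosolic calcium and set the total adenine nucleotides of the matrix. All 3 that were tested were higher on day 1 than in sham, and 2 of 3 on day 7, where 22.0% and 30.9% of all genes tested were higher. *Slc25a24* (chr3:109123149-109168457, plus strand, 10 exons) was at 8.29, 9.53, 7.52 and 6.69 CPM in sham, 14.95, 15.4, 13.7 and 13.5 on day 1 and 19.4, 21.6, 14.9 and 18.6 on day 7. Every AMI heart lay above every sham heart, and the AMI groups overlapped each other. The log2 FC was 0.84, SE 0.13, adjusted p = 0.000226 on day 1 and 1.22, SE 0.13, adjusted p = 2.74e-06 on day 7, or 2.32-fold higher. *Slc25a25* was also higher in both, with log2 FCs of 0.77 and 0.55, although its call on day 7 was lost without any one of sham replicate 1, 3 or 4 or day 7 replicate 1 or 4, with adjusted p up to 0.118. *Slc25a23* was at 63.4, 57.6, 65.2 and 63.98 CPM in sham, 70.3, 75.3, 79.2 and 67.3 on day 1 and 61.1, 60.5, 72.5 and 64.4 on day 7. Its log2 FC was 0.22 on day 1 (adjusted p = 0.0381 by edgeR) and 0.047 on day 7, which did not pass. The call on day 1 was lost without any one of sham replicate 1, 2, 3 or 4 or day 1 replicate 1, 2 or 3 or day 7 replicate 4, with adjusted p up to 0.115. The log2 ratio of *Slc25a24* to *Slc25a23* was −3.51, −3.34, −3.76 and −4.01 in sham, −3.01, −2.91, −3.18 and −3.03 on day 1 and −2.37, −2.01, −2.91 and −2.31 on day 7. It was 0.62 and 1.25 higher on day 1 and day 7 than in sham (exact permutation test, p = 0.0286 for each, adjusted 0.0643). *Slc25a41* and *Slc25a54*, the other members with this substrate, were at or near 0.

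**Figure D3:**
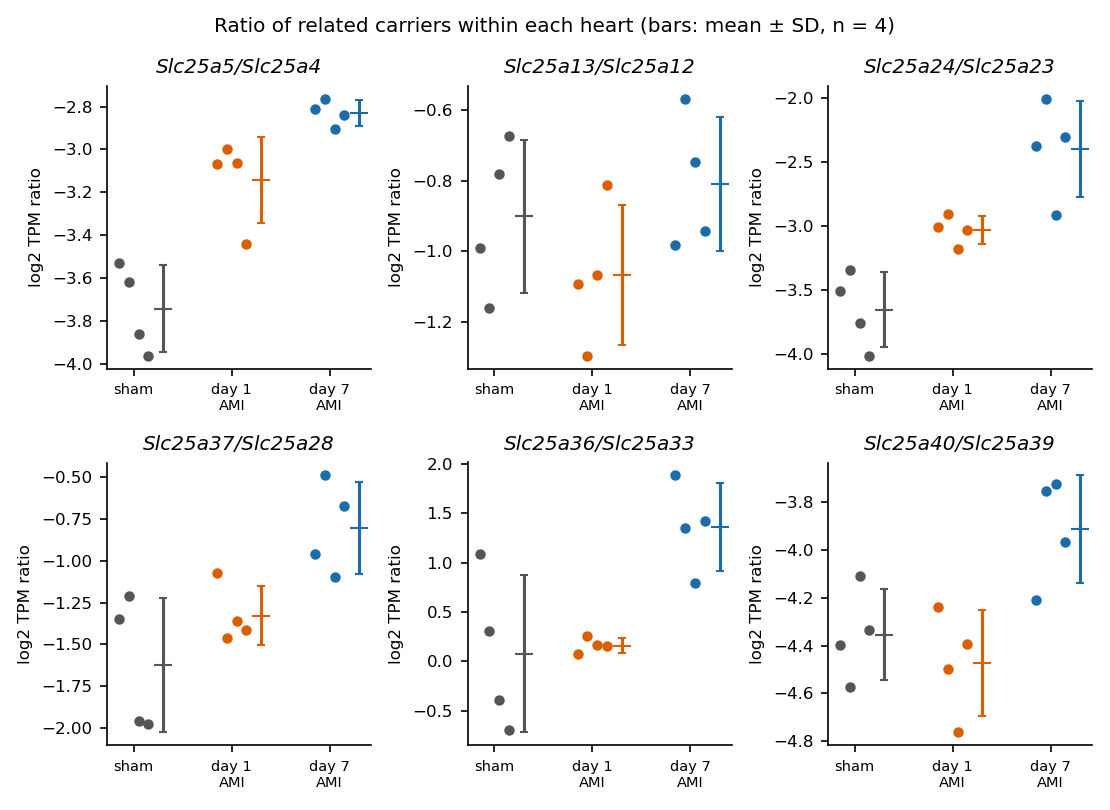
Log2 ratio of TPM + 0.1 of 6 pairs of related carriers in each heart, with the mean ± SD of 4 hearts beside the points; the vertical axes differ and do not start at 0. The groups do not overlap for *Slc25a5*/*Slc25a4*, from −3.96 to −3.53 in sham and from −2.91 to −2.76 on day 7, and they overlap in each comparison for *Slc25a13*/*Slc25a12*.

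The malate-aspartate shuttle brings the electrons of cytosolic NADH into the matrix and needs an aspartate/glutamate carrier and the malate/2-oxoglutarate carrier *Slc25a11*. All 3 tested carriers of aspartate and glutamate were lower in both AMI groups than in sham, where 19.9% of all genes tested were lower on day 1 and 28.4% on day 7. With TMM scaling, *Slc25a11* was lower in each comparison. *Slc25a11* was at 595, 550.2, 617 and 692 CPM in sham, 384, 353, 431 and 465 on day 1 and 310.0, 322, 351 and 317 on day 7. Its AMI hearts lay below every sham heart, and its log2 FC was −0.59, SE 0.10, adjusted p = 0.000456 on day 1, a call lost with limma on TPM, and −0.92, SE 0.10, adjusted p = 3.38e-06 on day 7. In TPM its day 7 hearts (370 to 400) lay within the range of its day 1 hearts (353 to 482). The call of *Slc25a11* from day 1 to day 7 did not hold in all 8 alternative fits. *Slc25a12* (aralar), the calcium-sensitive aspartate/glutamate carrier of heart and brain, was at 284, 246, 259 and 272 CPM in sham, 170.0, 168, 187 and 202 on day 1 and 123, 134, 144 and 136 on day 7. In CPM the 3 groups of *Slc25a12* did not overlap, whereas in TPM its day 1 hearts (102 to 119) and day 7 hearts (87.9 to 108) overlapped. Its log2 FC was −0.55, SE 0.083, adjusted p = 0.000212 on day 1 and −0.98, SE 0.084, adjusted p = 4.12e-07 on day 7.

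*Slc25a13* (citrin), the aspartate/glutamate carrier known best from liver, was at 174, 135, 174 and 212 CPM in sham, 98.5, 81.9, 108 and 129 on day 1 and 74.4, 113, 111 and 90.1 on day 7. The AMI hearts lay below every sham heart and overlapped each other, with log2 FCs of −0.73 and −0.84, which did not pass with limma on TPM. The log2 ratio of *Slc25a13* to *Slc25a12* differed from sham by −0.17 on day 1 and 0.092 on day 7, with p = 0.286 and 0.543 by the exact permutation test. The glutamate carrier *Slc25a22* (chr7:141429744-141437892, minus strand) was at 78.03, 83.5, 105 and 86.8 CPM in sham, 54.2, 54.4, 51.6 and 42.9 on day 1 and 34.5, 32.3, 43.6 and 47.00 on day 7. Its log2 FC was −0.80, SE 0.13, adjusted p = 0.00033 on day 1 and −1.17, SE 0.13, adjusted p = 4.18e-06 on day 7. In CPM no AMI heart reached a sham heart, whereas in TPM the lowest sham heart, at 41.9, lay below AMI hearts of up to 48.03, and the call on day 1 was lost with limma on TPM. All 4 enzymes of the shuttle, *Got1*, *Got2*, *Mdh1* and *Mdh2*, were lower in each comparison. Among all genes tested, 19.9% were lower on day 1, 28.4% on day 7 and 22.8% from day 1 to day 7. Cytosolic aspartate aminotransferase *Got1* had a log2 FC of −0.39 on day 1 and −1.29 on day 7, and the other 3 lay between −0.94 and −0.91 on day 7.

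Long-chain fatty acids, the main fuel of the adult heart, enter the matrix as acylcarnitines through *Slc25a20* (chr9:108662088-108684641, plus strand, 9 exons). It was at 249, 202, 234 and 250.2 CPM in sham, 152, 138, 149.8 and 186 on day 1 and 83.2, 83.6, 99.4 and 85.3 on day 7. In CPM the 3 groups did not overlap and stood in that order, whereas in TPM 1 day 1 heart, at 173, lay within the sham hearts (156 to 175). The log2 FC was −0.58, SE 0.10, adjusted p = 0.00067 on day 1, −1.41, SE 0.11, adjusted p = 1.48e-07 on day 7, or 2.66-fold lower, and −0.83, SE 0.11, adjusted p = 2.84e-05 from day 1 to day 7. The call on day 1 was lost with limma on log2(TPM + 1). The enzymes that load and unload carnitine were all lower on day 1, 4 of 4, and 3 of 4 were lower on day 7. Among all genes tested, 19.9% and 28.4% were lower on these days. The muscle carnitine palmitoyltransferase *Cpt1b* had log2 FCs against sham of −0.68 and −1.07, *Cpt2* of −0.79 and −1.25, and carnitine acetyltransferase *Crat* of −0.64 and −1.24. The liver form *Cpt1a* had a log2 FC of −0.54 on day 1 and −0.22 on day 7, the latter without passing the test.

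Among the carriers of di- and tricarboxylates the directions differed. *Slc25a34* (chr4:141618824-141623821, minus strand, 5 exons), whose substrate is not settled, was at 206, 228, 366 and 358 CPM in sham, 113, 82.4, 103 and 142 on day 1 and 77.8, 64.6, 113 and 74.6 on day 7. The sham hearts fell into a lower and a higher pair, and even the lower pair stood above every AMI heart. Its log2 FC, −1.40, SE 0.22, adjusted p = 0.000266 on day 1 and −1.81, SE 0.22, adjusted p = 9.67e-06 on day 7, was the lowest of the 41 carriers in both comparisons, and amounted to 2.64-fold and 3.51-fold lower levels. Its relative *Slc25a35* had a log2 FC of −0.40 on day 7, which turned to 0.0095 with library sizes alone. That call was lost without any one of sham replicate 1, 2, 3 or 4 or day 1 replicate 1 or 3 or day 7 replicate 1, 2 or 3, with adjusted p up to 0.121. Of the exon bases of *Slc25a35*, 31.3% overlap exons of *Rangrf* on the other strand, and reads of both cannot be told apart where strand is not counted. The citrate carrier *Slc25a1*, which supplies acetyl units for lipid synthesis, was higher on day 7 (0.66, SE 0.12, adjusted p = 0.00031) and on day 1 (0.35, SE 0.12, adjusted p = 0.0334), the latter lost without any one of sham replicate 1 or day 1 replicate 1, 2 or 3, with adjusted p up to 0.106. The dicarboxylate carrier *Slc25a10* had a log2 FC of −0.31 on day 1, which reversed to 0.067 with limma on log2(TPM + 1), and was higher on day 7 than on day 1 (0.50, SE 0.11, adjusted p = 0.00257). The call on day 1 was lost without any one of sham replicate 2, 3 or 4 or day 1 replicate 1, 2 or 3 or day 7 replicate 2, 3 or 4, with adjusted p up to 0.163.

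The sequence before the start of *Slc25a34* is shown because this gene had the largest decrease. It was read from RefSeq on GRCm38.p6 (chr4:141623835-141624084, minus strand), for which windows of 250 bases before to 50 after the start were matched to 36 of the 47 carriers. Capitals mark TGACCTT, which is AAGGTCA on the other strand, the half-site that estrogen-related receptors bind.
*Slc25a34*: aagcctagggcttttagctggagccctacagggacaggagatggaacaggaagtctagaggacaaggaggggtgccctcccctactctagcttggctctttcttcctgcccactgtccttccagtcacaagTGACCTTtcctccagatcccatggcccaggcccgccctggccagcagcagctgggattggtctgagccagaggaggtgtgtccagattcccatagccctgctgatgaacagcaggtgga
AAGGTCA was found on either strand in 1 of the 36 carrier windows (2.78%) and in 4.66% of 27025 gene windows. The core of the NRF1 motif, GCATGCG, was found in 2 of the 36 (5.56%) and in 3.64% of all windows. The 2 were those of *Slc25a31*, at 2 to 14 counts in a heart, and *Slc25a54*, at 0 in every heart. For a carrier the window nearest its principal transcript start was taken, and for the shares over all genes the first listed window of each gene. These matches describe letters in short windows only.

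**Figure D4:**
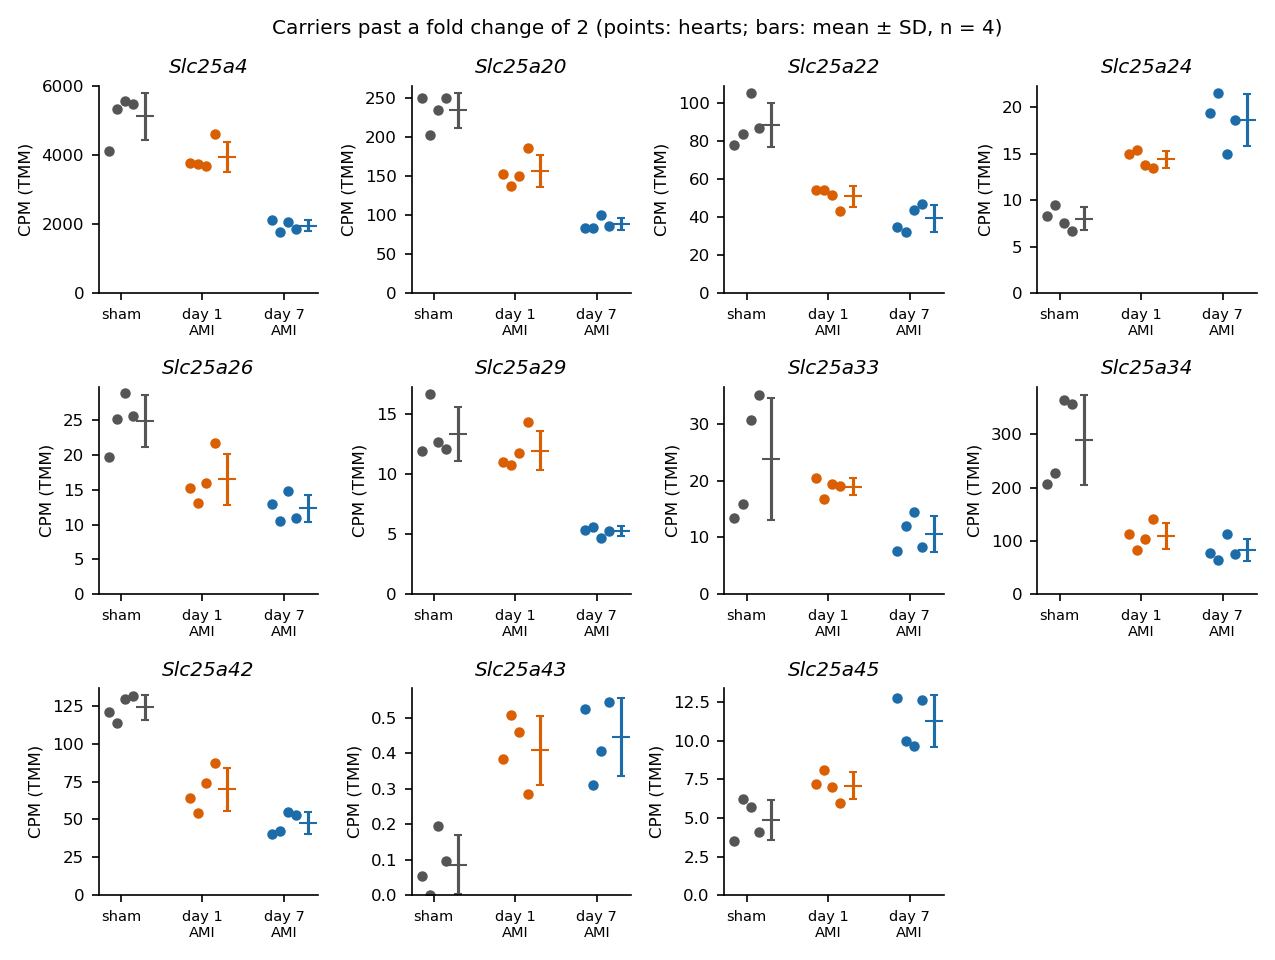
CPM of the 11 carriers that passed an FDR of 0.05 with a FC of 2 or greater in at least 1 comparison, with 1 point per heart and the mean ± SD of 4 hearts beside the points; each vertical axis starts at 0. *Slc25a24*, *Slc25a43* and *Slc25a45* are higher on day 7 than in sham and the other 8 lower. On day 1, *Slc25a29* and *Slc25a33* did not pass the test against sham. The sham hearts of *Slc25a33* run from 13.5 to 35.2 CPM.

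The group of carriers of other amino acids and of S-adenosylmethionine held 7 tested genes, with *Slc25a47* counted among them. The grouping does not establish the substrate of each. Of these 7, 1 was lower and 2 higher on day 1, 5 were lower and 1 higher on day 7, and 6 were lower and 1 higher from day 1 to day 7. Of all genes tested, 19.9% were lower and 22.0% higher on day 1, 28.4% and 30.9% on day 7, and 22.8% and 24.2% from day 1 to day 7, and the day 1 counts of this group are close to those shares. The basic amino acid carrier *Slc25a29* was at 11.9, 16.6, 12.7 and 12.1 CPM in sham, 10.97, 10.7, 11.8 and 14.3 on day 1 and 5.36, 5.602, 4.65 and 5.27 on day 7. The day 1 hearts overlapped sham, and the day 7 hearts lay far below both. Its log2 FC was −0.16, SE 0.13, adjusted p = 0.353 on day 1, which did not pass, −1.35, SE 0.14, adjusted p = 1.79e-06 on day 7 and −1.19, SE 0.14, adjusted p = 1.23e-05 from day 1 to day 7. The last was the lowest of the 41 carriers in that comparison. *Slc25a47*, a carrier known from liver, was lower over the same interval (−0.56, SE 0.14, adjusted p = 0.00526) and on day 7 than in sham (−0.71, SE 0.14, adjusted p = 0.000704), at 3.17 to 3.54 CPM on day 7 and 4.48 to 6.60 in the other hearts.

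These 2 genes are neighbors on opposite strands and are transcribed away from each other. *Slc25a29* lies at chr12:108825873-108835883 on the minus strand and *Slc25a47* at chr12:108836046-108856815 on the plus strand. The 162 bases between them (chr12:108835884-108836045, GRCm38) are shown on the strand of *Slc25a29*, from the RefSeq window of that gene, with the 18 CpG pairs in capitals.
Between *Slc25a29* and *Slc25a47*: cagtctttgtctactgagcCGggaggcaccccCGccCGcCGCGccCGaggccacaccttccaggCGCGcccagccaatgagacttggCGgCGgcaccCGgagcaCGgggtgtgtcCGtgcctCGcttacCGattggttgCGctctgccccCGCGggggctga
Their GC content was 71.6%. The RefSeq window of *Slc25a47* itself lies farther downstream, at chr12:108850879, and the principal GENCODE transcript of *Slc25a47* starts at that same site. The 162 bases therefore end at the outer boundary of the gene in GENCODE, not at its principal start. Of the other carriers, *Slc25a43* and *Slc25a5* lie 18448 bases apart on chromosome X, *Slc25a54* and *Slc25a24* lie 6461 bases apart on chromosome 3, and *Slc25a41* and *Slc25a23* lie 2056 bases apart on chromosome 17.

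*Slc25a26*, the S-adenosylmethionine carrier that supplies methyl groups to the matrix, was at 19.8, 25.1, 28.9 and 25.6 CPM in sham, 15.3, 13.04, 15.96 and 21.7 on day 1 and 12.9, 10.5, 14.8 and 10.99 on day 7. Its day 1 hearts overlapped sham in 1 heart, and its day 7 hearts did not, with log2 FCs of −0.59, a call lost with library sizes alone and with limma on TPM, and −1.01, SE 0.16, adjusted p = 9.48e-05. *Slc25a45*, which is related to *Slc25a29*, went the other way. It was at 3.49, 6.24, 5.72 and 4.06 CPM in sham, 7.23, 8.15, 7.001 and 5.99 on day 1 and 12.8, 10.01, 9.703 and 12.7 on day 7. Every day 7 heart stood above every other heart, and the log2 FC was 1.21, SE 0.18, adjusted p = 5.6e-05 on day 7 and 0.67, SE 0.17, adjusted p = 0.00594 from day 1 to day 7. The call on day 1 (0.53, SE 0.18, adjusted p = 0.0298) was lost without any one of sham replicate 1 or 4 or day 1 replicate 1, 2 or 3, with adjusted p up to 0.0874. The glycine carrier *Slc25a38*, which feeds heme synthesis, was lower on day 7 (−0.70, SE 0.12, adjusted p = 0.00014; lost with library sizes alone), and so was the ornithine carrier *Slc25a15* (−0.39), which turned to 0.0072 with library sizes alone. The branched-chain amino acid carrier *Slc25a44* was higher on day 1 than in sham (0.21, SE 0.081, adjusted p = 0.0482) and lower on day 7 than on day 1 (−0.34, SE 0.081, adjusted p = 0.00372). Neither call held in all 8 alternative fits. Against sham, its log2 FC on day 7 was −0.12 (adjusted p = 0.210), which did not pass. In TPM, every AMI heart of *Slc25a44*, at 10.7 to 12.5, lay above every sham heart, at 7.41 to 8.89.

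The carriers of cofactors, nucleotides and glutathione numbered 10, of which 6 were lower on day 1, 6 lower and 1 higher on day 7, and 3 lower and 1 higher from day 1 to day 7. The shares of all genes tested were 19.9% lower and 22.0% higher on day 1, and 28.4% and 30.9% on day 7. From day 1 to day 7 they were 22.8% and 24.2%, and the counts of this group over that interval lie near or below them. *Slc25a42*, which brings coenzyme A into the matrix, was at 121, 114, 129.7 and 132 CPM in sham, 64.4, 54.04, 74.2 and 87.3 on day 1 and 40.5, 42.6, 55.04 and 52.96 on day 7. All AMI hearts lay below all sham hearts, and the log2 FC was −0.83, SE 0.14, adjusted p = 0.000366 on day 1 and −1.38, SE 0.14, adjusted p = 1.6e-06 on day 7. *Slc25a16*, linked to the same cofactor, had log2 FCs of −0.57 and −0.65, both past the test against sham with TMM scaling but not with limma on TPM. The NAD+ carrier *Slc25a51* had log2 FCs of −0.24 and −0.39, which turned to 0.028 and 0.012 with library sizes alone. The peroxisomal member *Slc25a17* had a log2 FC of 0.22 on day 7, a call lost without any one of sham replicate 2 or 3 or day 1 replicate 1, 2, 3 or 4 or day 7 replicate 2, 3 or 4, with adjusted p up to 0.139. In TPM its 3 groups did not overlap, at 12.3 to 14.3 in sham, 16.2 to 17.5 on day 1 and 20.8 to 24.1 on day 7. *Slc25a32*, which carries folate and FAD, passed no test under TMM scaling and had a log2 FC of 0.69 on day 7 with limma on log2(TPM + 1).

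Both pyrimidine nucleotide carriers were measured. *Slc25a33* was at 13.5, 15.9, 30.8 and 35.2 CPM in sham, 20.4, 16.9, 19.4 and 19.1 on day 1 and 7.61, 12.02, 14.4 and 8.26 on day 7. The sham hearts ranged so widely that the lowest lay below the highest day 7 heart, and the log2 FC on day 7 was −1.18, SE 0.28, adjusted p = 0.00214. That call was lost with limma on TPM, and 14.9% of the exon bases of *Slc25a33* overlap an antisense gene. *Slc25a36* was at 60.5, 46.1, 49.7 and 53.1 CPM in sham, 43.2, 40.8, 45.2 and 42.5 on day 1 and 55.8, 61.1, 49.5 and 50.7 on day 7. It was higher on day 7 than on day 1 (0.34, SE 0.093, adjusted p = 0.00831), and its call against sham on day 1 (−0.29) reversed to 0.18 with limma on log2(TPM + 1) and was lost without any one of sham replicate 1 or 4 or day 1 replicate 1 or 2, with adjusted p up to 0.0741. The log2 ratio of *Slc25a36* to *Slc25a33* was 0.072, 0.26, 0.16 and 0.16 on day 1 and 1.88, 1.35, 0.79 and 1.42 on day 7, a difference of 1.20 (exact permutation test, p = 0.0286, adjusted 0.0643). The sham ratios, 1.09, 0.30, −0.39 and −0.69, spanned most of that range. Of the glutathione carriers, *Slc25a39* was at 129.9, 142, 127 and 133 CPM in sham, 109, 105, 126 and 122 on day 1 and 98.03, 99.1, 93.9 and 91.7 on day 7. Its log2 FC on day 7 was −0.47, SE 0.076, adjusted p = 0.000102, and this turned to 0.10 with limma on log2(TPM + 1). *Slc25a40* was at 11.4, 10.7, 12.6 and 10.3 CPM, 10.6, 8.89, 9.13 and 10.1 and 9.95, 13.1, 11.4 and 11.7 in the same order and passed no test with TMM scaling. In TPM its day 7 hearts, at 6.24 to 8.59, lay above the sham hearts (4.75 to 6.01) and the day 1 hearts (4.54 to 5.87). The log2 ratio of *Slc25a40* to *Slc25a39* was 0.56 higher on day 7 than on day 1 (exact permutation test, p = 0.0286, adjusted 0.0643).

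Of the mitoferrins, which bring iron into the matrix for heme and iron-sulfur clusters, *Slc25a28* was at 19.2, 22.1, 24.5 and 26.3 CPM in sham, 17.4, 20.2, 19.9 and 19.8 on day 1 and 14.3, 11.4, 15.5 and 13.9 on day 7. The day 7 hearts lay below all others (−0.74, SE 0.11, adjusted p = 6.92e-05), and this call too was lost with limma on TPM. *Slc25a37*, the form of red cell precursors, was at 30.6, 34.95, 24.3 and 25.8 CPM in sham, 32.9, 29.2, 31.2 and 27.97 on day 1 and 30.8, 29.7, 28.3 and 34.96 on day 7, and its groups overlapped throughout. The log2 ratio of *Slc25a37* to *Slc25a28* was −1.35, −1.21, −1.96 and −1.98 in sham, −1.07, −1.46, −1.36 and −1.42 on day 1 and −0.96, −0.49, −1.10 and −0.67 on day 7, and was 0.82 higher on day 7 than in sham (exact permutation test, p = 0.0286, adjusted 0.0643). Of 8 erythroid markers tested, 5 were lower on day 1 and 5 on day 7 than in sham, where 19.9% and 28.4% of all genes tested were lower. The summed level of 9 erythroid markers ran from 518 to 4572 CPM in sham, with the highest in sham replicate 2, from 440.1 to 673 on day 1 and from 259.98 to 1006 on day 7. Sham replicate 2 also had the highest *Slc25a37* of the sham hearts, and the part of red cells in these values was not tested.

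The members that resemble uncoupling proteins were scarce, at 1.77 to 5.19 TPM on average. *Slc25a30* was higher on day 7 (0.40, SE 0.12, adjusted p = 0.00964), *Slc25a27* was lower on day 1 (−0.67, SE 0.23, adjusted p = 0.0323) and *Slc25a14* passed no test. That call of *Slc25a27* was lost without any one of sham replicate 3 or 4 or day 1 replicate 1, 2 or 4, with adjusted p up to 0.122. Of 5 family members that bear other symbols, 4 were tested, of which 2 were lower on day 1, and 2 were lower and 1 higher on day 7. The shares of all genes tested were 19.9% lower on day 1, and 28.4% lower and 30.9% higher on day 7. *Ucp3*, the uncoupling protein of muscle, was at 81.3, 64.5, 192 and 169 CPM in sham, 36.7, 14.8, 23.5 and 38.2 on day 1 and 11.8, 11.7, 46.5 and 24.1 on day 7. All its AMI hearts lay below all its sham hearts, with log2 FCs of −2.16, SE 0.46, adjusted p = 0.00222 on day 1 and −2.43, SE 0.47, adjusted p = 0.00048 on day 7. *Ucp2*, the form of immune and many other cells, was higher on day 7 (0.55, SE 0.15, adjusted p = 0.00461). Of the 3 members without an assigned substrate, *Slc25a46*, an outer membrane protein that takes part in mitochondrial shape, was lower on day 7 (−0.55, SE 0.11, adjusted p = 0.000426) but turned to 0.014 with limma on log2(TPM + 1). *Slc25a53* was higher on day 7 (0.72, SE 0.20, adjusted p = 0.00729), from 1.25 to 2.05 CPM in sham to 2.25 to 3.28, a call that was lost with limma on TPM.

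*Slc25a43* was the rarest of the called carriers. It had 1, 0, 4 and 2 counts in the sham hearts, 10, 17, 14 and 9 on day 1 and 17, 8, 11 and 16 on day 7. No AMI heart fell to the sham range. Summed over hearts and scaled, the level was 4.98 times that of sham on day 1 (95% counting interval 2.25 to 13.0) and 5.50 times on day 7 (2.49 to 14.4). The fitted log2 FCs of 2.24 and 2.37 (adjusted p = 0.00563 and 0.00202, edgeR) rest on these few counts. The counting interval leaves out the spread between hearts. For *Slc25a31* on day 1, the same ratio to sham was 0.44 (0.24 to 0.79), although that difference did not pass the test (adjusted p = 0.102, edgeR).

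Carriers are made in the cytosol and reach the inner membrane through the TOM complex, small TIM chaperones and the TIM22 complex. Of 13 genes of this route, 2 were higher and 1 lower on day 1, whereas 11 were lower on day 7 than in sham and 11 were lower on day 7 than on day 1. The shares of all genes tested were 22.0% higher and 19.9% lower on day 1, 28.4% lower on day 7 and 22.8% lower from day 1 to day 7, so that the day 1 counts of this list lie below those of all genes. Their summed level ran from 626 to 678 CPM in sham, from 682 to 699 on day 1 and from 469.8 to 490.4 on day 7. The counts of this and the other gene lists were made with TMM scaling. This list's median log2 FC on day 7 against sham was −0.46. With library sizes alone, the median of all genes tested moved from 0.03 to 0.43 in that comparison, so that the list counts may depend on the scaling. The receptor *Tomm70a* had a log2 FC of 0.35 on day 1 and −0.59 from day 1 to day 7, and the chaperone *Timm13* had −1.01 over that interval. Other routes through the mitochondrial membranes were counted too. Of 11 genes for pyruvate carriers, the calcium uniporter and the outer membrane channels, 7 were lower and 2 higher on day 1, and 8 were lower and 2 higher on day 7. Among all genes tested, 19.9% were lower and 22.0% higher on day 1, and 28.4% and 30.9% on day 7. The numbers of these genes that were higher lie below those shares. The pyruvate carrier subunit *Mpc2* was at 283, 298, 327 and 324 CPM in sham, 227, 216, 231 and 297 on day 1 and 135, 132, 153 and 133 on day 7 (log2 FC −1.15, SE 0.10, adjusted p = 6.09e-07 on day 7). *Mcub*, the subunit that dampens calcium uptake, was at 2.19, 2.59, 1.31 and 1.24 CPM, 4.36, 5.94, 3.79 and 4.26 and 5.52, 3.63, 3.17 and 5.24 in the same order, and was higher in both AMI groups (1.32, SE 0.26, adjusted p = 0.00139 on day 1 and 1.26, SE 0.26, adjusted p = 0.000917 on day 7).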

How the data were processed

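RNA of 12 whole mouse hearts was sequenced, 4 after sham surgery, 4 on day 1 and 4 on day 7 after AMI, as 150-bp paired-end reads of cDNA made with random hexamer primers. The authors trimmed the reads with Cutadapt, aligned them with STAR 2.4.0j to the Ensembl GRCm38 mouse reference (mm10) and quantified genes with RSEM. CASAVA 1.8 is also named in the submitters' processing notes. The authors deposited raw counts per gene, and separately TPM values from RSEM. The tool behind the counts, the strand counted and the handling of multiply aligned reads are not given in the sources used here, so that paralogs and antisense genes may share reads. The replicate numbers come from the labels and name different hearts; p-values measure the spread between these hearts.

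Counts were fitted with edgeR 4.0.16 in R 4.3.3 (TMM, filterByExpr by group, quasi-likelihood test, 12 libraries in one fit of 3 groups without covariates), with Benjamini-Hochberg adjustment over 15306 genes; log2 FCs are edgeR's and standard errors follow from the F statistic. Ratios of related carriers used log2(TPM + 0.1) and exact two-sided permutation tests (scipy 1.17.1), with adjustment over 18 tests. The alternatives were DESeq2 1.42.0, RLE size factors, library sizes alone, no filter, only the groups compared, limma 3.58.1 on log2(TPM + 1) and log2(TPM + 0.1), a FC of 2, a replicate block, and leaving out each heart. The code was tested on simulated data. Positions and exons are from GENCODE M21 (GRCm38), and promoter windows and motifs from RefSeq. No protein sequences were used. The values of 1 tested carrier are not reported here, although it is part of the counts.

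Values per heart were given for carriers called in any comparison with at least a FC of 2, the 5 most abundant carriers and the 6 pairs; list genes were named at a FC of 2 or as the 2 largest changes of their list. *Got2*, *Mdh1*, *Mdh2*, *Cpt1a*, *Hk1*, *Ucp2* and *Tomm70a* were named after their values were seen. The carriers and gene lists were chosen with earlier results of these data known. Libraries of one group differed by more than sampling noise, with a chi-square per degree of freedom of at least 9.25. Plots used matplotlib 3.10.9 (Python 3.11.15).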

Additional observations from a re-analysis of the deposited data

Results flagged for a closer look

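Each of 46 measures, 40 carriers and 6 ratios, was screened in each group of 4 hearts for a heart that stood apart from the other 3 by Dixon's criterion. Of 138 groups screened, 9 held such a heart, where chance alone marks about 1 in 20. In sham replicate 1, the library with the largest share of mitochondrial transcripts, *Slc25a1* was at 6.57 CPM and *Slc25a4* at 4119 CPM, both below the other 3 sham hearts. *Slc25a29* was at 16.6 CPM in sham replicate 2, above the others at 11.9 to 12.7. In day 1 AMI replicate 4, *Slc25a4* was at 4609 CPM, above the others at 3688 to 3766, and the log2 ratio of *Slc25a5* to *Slc25a4* was −3.44, below the others. *Slc25a28* was at 17.4 CPM in day 1 AMI replicate 1, below the others at 19.8 to 20.2. In day 7 AMI replicate 1, *Slc25a14* was at 1.20 CPM, below the others, and *Slc25a51* at 79.0 CPM, above the others. *Slc25a20* was at 99.4 CPM in day 7 AMI replicate 3, above the others at 83.2 to 85.3.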

How the results depend on the processing

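The count of higher and lower carriers depended on the scaling between libraries. With library sizes alone, 11 carriers were higher and 8 lower on day 1 than in sham, 15 and 14 on day 7, and 11 lower from day 1 to day 7. With limma on log2(TPM + 1) these were 11 and 3, 16 and 10, and 6, and with limma on log2(TPM + 0.1) 11 and 4, 16 and 10, and 6. With a FC of 2 they were 1 and 1, 3 and 8, and 0 higher and 2 lower from day 1 to day 7. The number higher on day 1 was 4 without the filter and 4 with only the groups compared. Of the 123 log2 FCs (41 carriers in 3 comparisons), reversals occurred with library sizes alone (8), limma on log2(TPM + 1) (13) and limma on log2(TPM + 0.1) (13), and in none of RLE, DESeq2, no filter, only the groups compared, the replicate block or a heart left out; a change of sign without a call in either fit was not counted. On day 7 against sham, the reversed log2 FCs were *Slc25a5* 0.029 (library sizes), 0.19 (TPM + 1), 0.19 (TPM + 0.1), *Slc25a15* 0.0072 (library sizes), 0.14 (TPM + 1), 0.17 (TPM + 0.1), *Slc25a32* 0.36 (library sizes), 0.69 (TPM + 1), 0.80 (TPM + 0.1), *Slc25a35* 0.0095 (library sizes), 0.025 (TPM + 1), 0.029 (TPM + 0.1), *Slc25a39* 0.10 (TPM + 1), 0.10 (TPM + 0.1), *Slc25a44* 0.28 (library sizes), 0.40 (TPM + 1), 0.44 (TPM + 0.1), *Slc25a46* 0.014 (TPM + 1), 0.014 (TPM + 0.1), *Slc25a51* 0.012 (library sizes), 0.20 (TPM + 1), 0.21 (TPM + 0.1). On day 1 against sham, the reversed log2 FCs were *Slc25a10* 0.067 (TPM + 1), 0.074 (TPM + 0.1), *Slc25a32* 0.60 (TPM + 1), 0.70 (TPM + 0.1), *Slc25a36* 0.18 (TPM + 1), 0.18 (TPM + 0.1), *Slc25a39* 0.069 (library sizes), 0.12 (TPM + 1), 0.12 (TPM + 0.1), *Slc25a51* 0.028 (library sizes), 0.17 (TPM + 1), 0.17 (TPM + 0.1).

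Leaving out each heart gave 3 to 7 carriers higher and 12 to 18 lower on day 1, 6 to 8 and 22 to 23 on day 7, and 4 to 7 and 14 to 19 from day 1 to day 7. The number higher on day 1 was 4 without sham replicate 1 or 4 and 3 without day 1 replicate 1, 2 or 3. The number higher from day 1 to day 7 was 4 without day 1 replicate 3 or 4 or day 7 replicate 2. Over the 12 fits, 124 of 1476 results lost their call and 10 gained one. In the ratio tests, an exact permutation of 3 hearts against 4 cannot go below p = 0.0571, so that each ratio at p = 0.0286 lost it there by construction. Same-numbered hearts correlated at −0.24 to 0.23 over 12 pairs, and 1 of 12 hearts correlated best with its own number in each of the other groups. With 4 hearts a group, these values cannot decide whether hearts of one number shared a batch. With the replicate block, 5 carriers were higher and 16 lower on day 1, 7 and 23 on day 7, and 6 and 18 from day 1 to day 7. Depth limits *Slc25a31*, *Slc25a43* and the 6 untested carriers, for which differences were not detectable or rest on few counts.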
